A study of Mus musculus with 96 samples.

Results

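The genes described here are 32 mouse genes of adipocyte lipid storage and identity. They were chosen as a named list and found by symbol in the deposited files of sciatic nerve and gastrocnemius muscle. All 32 were listed in both tissues, among 22632 symbols for nerve and 20940 for muscle. Messenger RNA had been sequenced in 96 libraries, 47 of nerve and 49 of muscle, from male C57BL/6J mice housed singly. The regimens started when the mice were 12 weeks old and ended with tissue collection at 26 weeks. Mice fed a standard diet throughout (SD, 10% of energy from fat) gave 6 nerve and 8 muscle libraries. Those kept on a lard-based high-fat diet (HFD, 60%) gave 6 and 7, and those kept on a ketogenic diet based on cocoa butter (KD, 90%) gave 7 and 7. The other 4 regimens started with HFD and changed at 18 weeks. One returned to SD (DR, 7 and 7), one moved to KD (KDI, 7 and 7), one stayed on HFD with a voluntary running wheel (EX, 7 and 7) and one moved to KD with a wheel (KDI_EX, 7 and 6).

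White adipocytes store triglyceride in one large droplet. Enzymes of the glycerol phosphate pathway build the lipid, the coat protein Plin1 and the fusion protein Cidec keep it in the droplet, and Pnpla2, Lipe and Mgll release its fatty acids one at a time. The nuclear receptor Pparg with the C/EBP factors maintains this programme. Fat surrounds the sciatic nerve and lies between muscle fibres, so a dissected nerve or muscle carries adipocyte RNA. In such bulk tissue, fewer adipocytes and less RNA per adipocyte cannot be told apart.

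In muscle, Dgat2 was lower in the ketogenic than in the high-fat regimen, and G0s2 passed the test over the 7 regimens; in nerve no member passed a test between regimens in the fit without a covariate. The G0s2 call was lost without any 1 of 5 libraries, and both muscle calls were lost with adipocyte markers as a covariate. Most members correlated across libraries with Adipoq, an adipocyte gene outside the list, but the share of all genes that did so was not computed. Relative to Adipoq in the same library, the medians of nerve Dgat2 were highest and those of nerve Pck1 lowest in HFD and EX.

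Promoters are shown for 3 members whose levels followed the adipocyte marker Adipoq or departed from it, as described further on. The RefSeq table of GRCm38.p6 gave 34 start windows for 24 of the 32 members, each from 250 bases before to 50 bases after a start. In the sequences, written on the gene's own strand, capitals mark the letters TTGCNNAA, the core of a C/EBP motif, which was searched on both strands. The windows lie at chr7:79732727-79733026 on the minus strand (Plin1), chr6:113434715-113435014 on the minus strand (Cidec) and chr2:173152823-173153122 on the plus strand (Pck1).
Plin1: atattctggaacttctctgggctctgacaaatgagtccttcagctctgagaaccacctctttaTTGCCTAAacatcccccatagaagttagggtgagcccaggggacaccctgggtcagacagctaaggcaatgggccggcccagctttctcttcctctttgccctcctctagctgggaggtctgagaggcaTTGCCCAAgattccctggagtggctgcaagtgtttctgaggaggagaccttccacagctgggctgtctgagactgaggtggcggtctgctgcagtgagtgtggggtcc
Cidec: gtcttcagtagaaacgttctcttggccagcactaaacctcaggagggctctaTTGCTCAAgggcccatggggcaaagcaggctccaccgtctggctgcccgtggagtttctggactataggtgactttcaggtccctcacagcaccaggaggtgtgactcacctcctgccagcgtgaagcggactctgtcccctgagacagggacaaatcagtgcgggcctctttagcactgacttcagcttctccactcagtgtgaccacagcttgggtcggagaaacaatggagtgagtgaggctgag
Pck1: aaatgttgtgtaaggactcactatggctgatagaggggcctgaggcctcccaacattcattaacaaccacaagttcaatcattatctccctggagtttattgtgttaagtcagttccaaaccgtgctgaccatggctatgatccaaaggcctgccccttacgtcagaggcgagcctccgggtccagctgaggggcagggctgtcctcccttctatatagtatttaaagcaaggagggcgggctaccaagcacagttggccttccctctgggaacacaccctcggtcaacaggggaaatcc
The Plin1 window held the letters at positions -187 and -58 from the start, and the Cidec window at -198. The other Cidec window and the Pck1 window held none. Among the 24 members, Cidec, Dio2, Gpam, Plin1 and Pparg had a window with these letters. By windows this was 5 of the 34, beside 10.797% of all 32851 windows. The letters AGGNCANAGGNCA, a form of the repeat bound by Pparg with its partner Rxra, were in no member window and in 0.381% of all windows. CCAAT was found in 8 members (9 of the 34 windows, beside 37.408% of all windows) and TATAAA in 4 members (4 of the 34, beside 13.616%). Both were searched on both strands, and CCAAT can overlap the C/EBP core. A match is a run of letters and not a measured binding site. The 3 promoters shown do not stand for the other members. Lipe, with r of 0.96 with Adipoq in nerve, had TTGCNNAA in neither of its windows, and G0s2 had none. Dio2 (r 0.14 in nerve) and Gpam (r 0.46) had these letters.

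The files hold 1 log2 value per gene and library, with the transform not stated and the depth unknown. Markers of the labelled tissues were high in them. Nerve libraries had a mean log2 level of 14.65 to 15.56 over 11 markers of myelinating Schwann cells, and muscle libraries had 17.57 to 18.03 over 15 markers of muscle fibres. Nerve libraries also carried muscle fibre RNA in unequal amounts, with a mean marker level from 6.92 to 12.97. The nerve libraries EX replicate 5 (12.97) and KDI_EX replicate 7 (12.93) were highest, and with muscle libraries DR replicate 1 and KDI_EX replicate 6 they lay at the ends of the first principal component of their tissue. Without these 4 libraries, the count of members called was unchanged in each of the 11 comparisons per tissue. The labels do not name the mouse behind a library, so p-values measure the spread between libraries, and nerve and muscle may come from the same mice.

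The list was not uniformly adipose in these tissues. On a scale of log2 level per kilobase of exon, the highest members in nerve were Sncg (14.56, gamma-synuclein, also a protein of peripheral neurons), Car3 (14.01, a carbonic anhydrase of fat and slow muscle) and Fabp4 (13.07, a fatty acid carrier of adipocytes and capillaries). Cidec followed at 12.08 and Cyp2e1 at 11.60. In muscle the order began with Car3 (14.62), Gpd1 (12.29), Fabp4 (12.05), Pnpla2 (11.33) and Plin4 (10.95), several of which muscle fibres also make. These ranks hold only if the deposited values were not already corrected for length, which is not stated. By the mean deposited values, nerve began with Car3 (15.53), Fabp4 (15.23) and Sncg (14.33). Muscle began with Car3 (16.14), Fabp4 (14.21) and Gpd1 (13.85). Exon length was the union of all annotated exons of a gene. For Fabp4 that union (4489 bases) covered the whole gene, so its value may be too low and its rank in either tissue is not settled. At the low end were Cidea (4.53), Dio2 (2.32) and Elovl3 (-0.07) in nerve and Acvr1c (3.85), Adrb3 (2.75) and Elovl3 (2.04) in muscle. Elovl3, an elongase of brown fat, had deposited log2 levels of 0.83 to 1.35 in nerve and 2.704 to 4.24 in muscle and was left out of the tests by the filter on low values. The other 31 members passed in both tissues, out of 17226 genes tested in nerve and 15748 in muscle. Because the filter asked for a minimum in 6 libraries of any regimen, the members tested are not all members.

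The plainest property that most members shared was that their level went up and down with Adipoq, the gene of the adipocyte hormone adiponectin, which is not a member. In nerve 28 of 31 members correlated with Adipoq over 47 libraries at an adjusted permutation p under 0.05, with a median r of 0.82, and 17 had r of at least 0.8. In muscle 24 of 31 did over 49 libraries, with a median r of 0.69 and 11 at 0.8 or more. Each gene's correlation was tested with 100000 permutations and adjusted over the 31 members of a tissue. The share of all genes that correlated with Adipoq was not computed, so these counts have no background beside them. Correlations with the muscle gene Ckm in nerve made 93 relations in all. With Ckm, 0 of 31 members passed over all nerve libraries and 26 with regimen means subtracted, 0 of them with r of at least 0.8.

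Cidec tracked Adipoq most closely in both tissues. In nerve its r was 0.97 and rho was 0.97 (permutation p 1e-05, the smallest the permutations can give), and in muscle r was 0.99 and rho 0.98 (p 1e-05). Without the 2 libraries farthest from the Adipoq median r was 0.97 and 0.98, and with regimen means subtracted it was 0.98 and 0.98. Plin1 had r of 0.94 in nerve and 0.98 in muscle, with rho of 0.94 and 0.98. The adjusted p was 1.15e-05 in nerve and 1.94e-05 in muscle for both genes.

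Other members separated the tissues. Sncg had r of 0.02 with Adipoq in nerve (rho -0.004, adjusted p 0.876) and 0.92 in muscle (rho 0.92, adjusted p 1.94e-05). Car3 had 0.94 in nerve (rho 0.93, adjusted p 1.15e-05) and -0.01 in muscle (rho -0.01, adjusted p 0.932). Gpd1, the dehydrogenase that makes glycerol phosphate, had 0.81 in nerve (rho 0.85) and -0.11 in muscle (rho -0.16, adjusted p 0.489). The lipase Pnpla2 had 0.82 in nerve (rho 0.78) and 0.20 in muscle (rho 0.20, adjusted p 0.207). Lpin1, which makes diacylglycerol, had 0.70 (rho 0.68) and -0.23 (rho -0.24, adjusted p 0.140), and the acyltransferase Gpam had 0.46 (rho 0.40) and -0.11 (rho -0.12, adjusted p 0.502). Cidea and the deiodinase Dio2 had r under 0.15 in both tissues. These differences between tissues in r were not tested. Whether a scale shared by the libraries of a tissue adds to r was not tested.

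**Figure D1:**
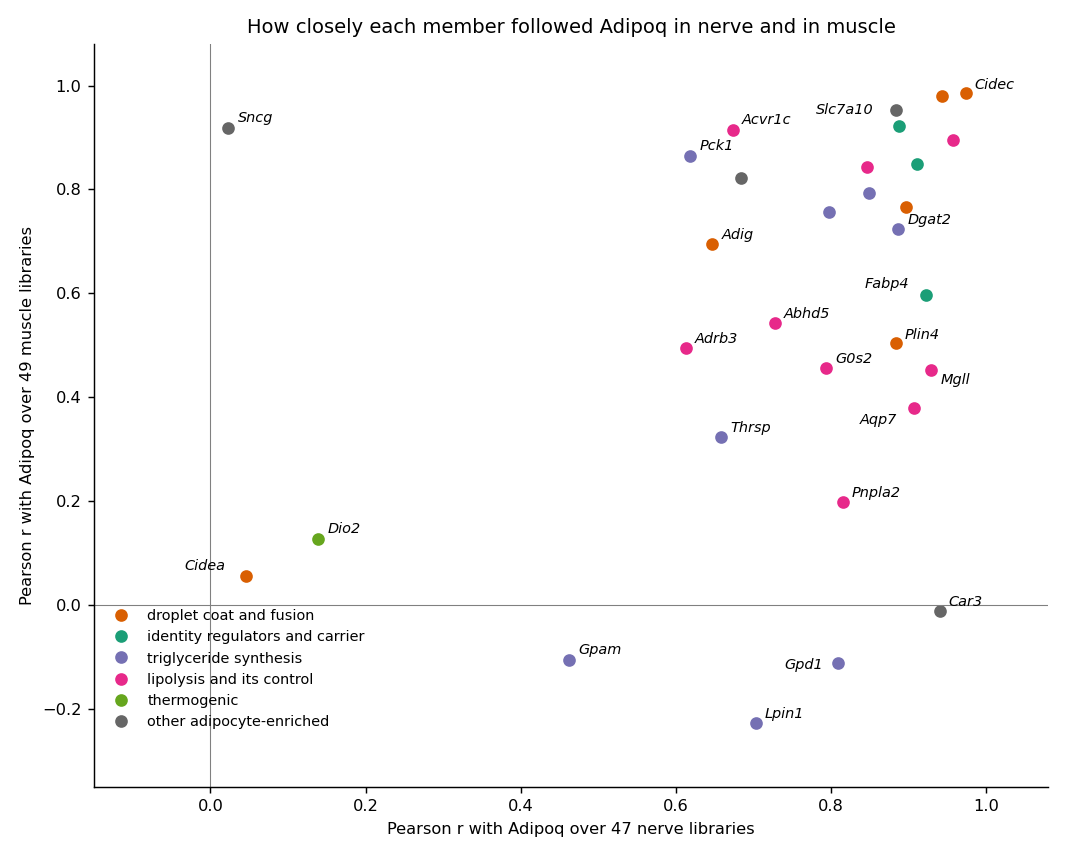
Pearson r of each of the 31 tested members with Adipoq, on the y axis for muscle (49 libraries) and the x axis for nerve (47 libraries), 1 point per gene. Cidec (0.97 and 0.99) and Plin1 (0.94 and 0.98) lie at the top right, Car3 (0.94 in nerve, -0.01 in muscle) at the lower right and Sncg (0.02 in nerve, 0.92 in muscle) at the upper left.

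In nerve, limma called no member in any of the 11 comparisons between regimens after Benjamini-Hochberg adjustment over all 17226 genes. Few genes of any kind passed. For HFD against SD 0% of genes were called, and 5 members (16.1%) had an unadjusted p under 0.05 against 18.2% of all genes. The members' signs were mixed there, 17 positive and 14 negative, with a median log2 difference of 0.06. Across all genes the medians of the comparisons lay between -0.00698 and 0.0077 in both tissues.

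Against the same HFD libraries, KD gave 10 positive and 21 negative members in nerve, with a median of -0.10 and 5 below 0.05 unadjusted (16.1% against 5.63% of all genes); 0.0348% of genes were called. DR gave 19 and 12, with a median of 0.06, 5 below 0.05 unadjusted (16.1% against 7.38%) and 0% of genes called. KDI gave 20 and 11, with a median of 0.04, 3 below 0.05 unadjusted (9.68% against 4.27%) and 0.0232% called. The signs leaned no single way among these 3 regimens. EX gave 29 positive members and 2 negative, with a median of 0.39, and 2 below 0.05 unadjusted (6.45% against 7.17%) and 0% of genes were called. KDI_EX gave 23 and 8, with a median of 0.10, 3 below 0.05 unadjusted (9.68% against 5.72%) and 0.0697% called. These comparisons share the HFD libraries and are not independent of each other.

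The remaining nerve comparisons had no member called either. KD against SD gave 10 positive and 21 negative members, a median of -0.11 and 1 below 0.05 unadjusted (against 5.28% of all genes, 0.00581% called). DR against SD gave 26 and 5, a median of 0.12 and 0 below 0.05 unadjusted (against 9.9% of all genes, 0% called). KDI against DR gave 12 and 19, a median of -0.05 and 2 below 0.05 unadjusted (against 5.43% of all genes, 0.00581% called). KDI_EX against EX had the most negative members, 26 with 5 positive, a median of -0.19 and 5 below 0.05 unadjusted (16.1% against 5.8% of all genes, 0.0581% called). KDI_EX against KDI gave 20 and 11, a median of 0.05 and 0 below 0.05 unadjusted (against 4.65% of all genes, 0% called). The moderated F test over the 7 regimens called 0 members in nerve, where it called 0.151% of genes; Dgat2 came nearest (adjusted p 0.1096).

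In muscle the members leaned one way more often. Against HFD, 26 of 31 were negative in KD, with a median of -0.34, and 13 below 0.05 unadjusted (41.9% against 5.89% of all genes). Of these, 1 (Dgat2) was called lower, where limma called 0.318% of genes. DR also gave 26 negative members, a median of -0.23 and 11 below 0.05 unadjusted (35.5% against 5.04%), with 0 called beside 0.0254% of genes. KDI_EX gave 25 negative, a median of -0.29 and 13 below 0.05 unadjusted (41.9% against 6.67%), with 0 called beside 0.108% of genes.

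KDI and EX had smaller medians against HFD in muscle. KDI gave 12 positive and 19 negative members, a median of -0.03, 1 below 0.05 unadjusted (against 2.62% of all genes) and 0 called (0.0318% of genes called). EX gave 20 and 11, a median of 0.02, 0 below 0.05 unadjusted (against 2.02% of all genes) and 0 called (0% of genes). HFD against SD gave 25 positive and 6 negative members, with a median of 0.20 and 11 below 0.05 unadjusted (35.5% against 8.68%); 0 were called and 0.0191% of genes were.

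Among the other muscle comparisons 0 members were called as well. KD against SD gave 23 negative members, a median of -0.17 and 5 below 0.05 unadjusted (against 10.2% of all genes, 0.197% called). DR against SD gave 18 negative, a median of -0.02 and 0 below 0.05 unadjusted (against 1.44% of all genes, 0% called). KDI against DR gave 26 positive, a median of 0.25 and 7 below 0.05 unadjusted (22.6% against 7.45%, 0.0508% called). Most members were lower in KDI_EX than in EX or KDI. Against EX it gave 25 negative members, a median of -0.29 and 14 below 0.05 unadjusted (45.2% against 6.96%, 0.0635% called), and against KDI 27 negative, a median of -0.23 and 6 below 0.05 unadjusted (19.4% against 4.72%, 0% called). The F test over the 7 regimens called 2 members, Dgat2 and G0s2, where 0.718% of genes were called.

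The adipocyte markers outside the list moved with these muscle comparisons. Of 8 markers (Adipoq, Lep, Retn, Cfd, Trarg1, Mrap, Nrg4 and Rbp4), 7 were lower in KD than in HFD and 8 in KDI_EX, and Lep, the leptin gene, was called in both (log2 difference -2.50, adjusted p 0.00738, and -2.53, adjusted p 0.0219). Their mean level had medians of 8.26 in SD (range 7.68 to 9.54), 9.09 in HFD (7.58 to 9.64) and 7.96 in KD (7.51 to 8.64). It was 8.34 in DR (7.75 to 9.08), 8.77 in KDI (7.97 to 9.46), 8.82 in EX (8.22 to 9.72) and 7.69 in KDI_EX (7.25 to 9.20). None of the 8 was at or near 0 in muscle, where Adipoq ranged from 8.71 to 12.49 and Mrap, the lowest, from 5.15 to 7.68. With the mean of these markers as a covariate, the sign of the difference turned for 17 of the 31 members in KD, 9 in DR and 15 in KDI_EX against HFD. Of these, 3, 1 and 4 had a difference of at least 0.5 in size without the covariate. The share of all genes whose sign turned was not computed. The other results of that fit are given further on.

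**Figure D2:**
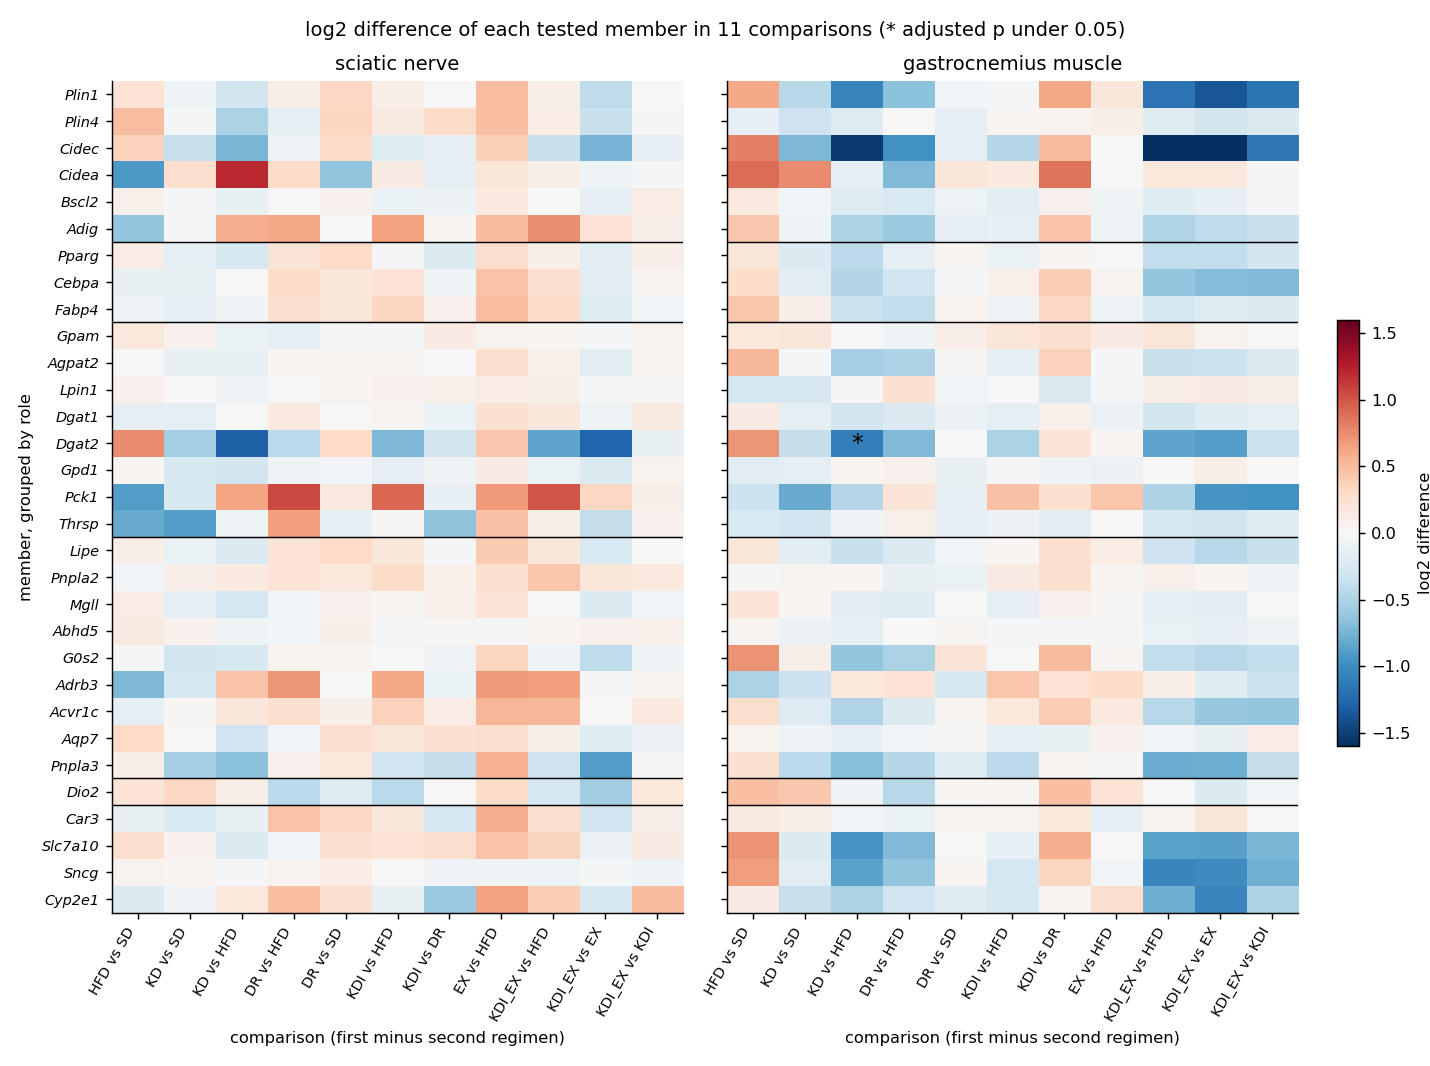
Log2 difference of each of the 31 tested members (rows, grouped by role) in the 11 comparisons (columns) of nerve and of muscle, on one colour scale. The muscle columns of KD, DR and KDI_EX against HFD are mostly negative (26, 26 and 25 of 31 members), and the nerve column of EX against HFD is mostly positive (29 of 31).

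Among the droplet coat and fusion genes, Cidec had the largest negative difference of all members in muscle against HFD in KD, DR and KDI_EX. Its log2 levels (lowest, median and highest library) were 8.91, 9.48 and 11.95 in SD, 8.88, 11.06 and 11.52 in HFD and 8.47, 9.03 and 9.80 in KD. They were 8.94, 9.52 and 10.74 in DR, 9.35, 10.12 and 11.08 in KDI, 9.70, 10.50 and 11.66 in EX and 8.09, 8.78 and 10.68 in KDI_EX. Of the HFD libraries, replicate 5 (8.88) lay within the KD range and the other 6 lay above all KD libraries. The difference was -1.53 for KD against HFD (SE 0.41, n = 7 and 7, lower in 7 of 7, adjusted p 0.102). It was -1.601 for KDI_EX (SE 0.42, n = 6 and 7, lower in 5 of 6, adjusted p 0.157) and -0.97 for DR (adjusted p 0.892). Here and below, such counts are libraries of the first regimen beyond the mean of the second, so the ranges can still overlap. Leaving out HFD replicate 5 brought the KD comparison past the threshold (-1.81, adjusted p 0.0156), and leaving out KDI_EX replicate 5 or HFD replicate 5 did so for KDI_EX (-1.94, adjusted p 0.0357, and -1.89, adjusted p 0.0318). Against EX, KDI_EX stood at -1.61 (adjusted p 0.229), and at -1.95 (adjusted p 0.0365) without KDI_EX replicate 5. With Adipoq as a covariate these differences of Cidec were far smaller, at -0.26 for KD against HFD (adjusted p 0.228), -0.19 for KDI_EX against HFD (adjusted p 0.471) and -0.16 for KDI_EX against EX (adjusted p 0.999724).

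Plin1, which coats the droplet and restrains its lipases until they are activated, also had its lowest muscle medians in KDI_EX and KD. Its log2 levels were 8.47, 9.47 and 11.29 in SD, 8.67, 10.38 and 11.17 in HFD and 8.49, 9.14 and 10.26 in KD. They were 8.60, 9.58 and 10.49 in DR, 9.24, 10.28 and 10.84 in KDI, 9.55, 10.23 and 11.22 in EX and 7.96, 8.80 and 10.90 in KDI_EX. All 7 regimens overlapped, with HFD, KDI and EX highest by their medians. The difference was -1.06 for KD against HFD (SE 0.39, adjusted p 0.498), -1.18 for KDI_EX against HFD (SE 0.41, adjusted p 0.423) and -1.15 for KDI_EX against KDI (adjusted p 0.977). With Adipoq as a covariate the first of these turned to 0.16 (adjusted p 0.526) and the second to 0.17 (adjusted p 0.594), and that for KDI_EX against KDI was -0.0048.

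In nerve, whose values may not share a scale with those of muscle, no difference of Plin1 or Cidec passed. Plin1 stood at 11.48, 12.50 and 13.02 in SD, 11.87, 12.53 and 13.43 in HFD and 11.86, 12.08 and 13.19 in KD. It stood at 12.30, 12.66 and 13.11 in DR, 12.32, 12.44 and 13.57 in KDI, 12.77, 13.05 and 13.69 in EX and 11.33, 12.89 and 14.03 in KDI_EX. The regimens overlapped throughout, and EX had the highest median. Cidec stood at 11.98, 13.04 and 13.30 in SD, 11.80, 13.46 and 14.07 in HFD and 11.89, 12.30 and 13.07 in KD. It stood at 12.61, 12.98 and 13.94 in DR, 12.28, 12.89 and 13.76 in KDI, 13.17, 13.37 and 14.32 in EX and 11.27, 13 and 13.81 in KDI_EX. Its lowest median was that of KD, where the difference from HFD was -0.74 (SE 0.35, adjusted p 0.866), and Cidec was the member with the largest negative difference for KDI_EX against KDI (-0.16, adjusted p 0.998).

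The other droplet genes were Plin4 (a coat protein), Bscl2 (seipin, which forms droplets), Adig (adipogenin) and Cidea (a fusion protein of brown and beige fat). Plin4 ranged from 12.27 to 15.20 in nerve and 12.61 to 14.17 in muscle, and it had the largest positive nerve difference of DR against SD (0.34, adjusted p 0.755) and of KDI against DR (0.29, adjusted p 0.922). Bscl2 ranged from 10.58 to 11.70 and 8.93 to 9.61, and Adig from 7.08 to 9.75 and 6.18 to 7.96. None of these passed the test in a comparison.

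Muscle Cidea was higher by its medians under each regimen that held HFD or KD at the end. Its log2 levels were 5.16, 5.51 and 6.14 in SD, 5.84, 6.64 and 6.85 in HFD and 5.75, 6.35 and 6.79 in KD. They were 5.20, 5.64 and 6.53 in DR, 5.60, 6.86 and 7.58 in KDI, 5.73, 6.48 and 7.84 in EX and 5.93, 6.73 and 7.23 in KDI_EX. SD and DR, the regimens that ended on SD, had the lowest medians, though their ranges overlapped the others. HFD exceeded SD by 0.90 (adjusted p 0.240), KD exceeded SD by 0.76 (adjusted p 0.315) and KDI exceeded DR by 0.86 (adjusted p 0.403), the largest positive differences of any member there. The F test gave an adjusted p of 0.0512 for Cidea, just outside the threshold. Its r with Adipoq in muscle was 0.06 (rho 0.05, adjusted p 0.723).

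Nerve Cidea was high in a few single libraries. It was higher in SD replicate 5 (7.32) and in KD replicates 6 (7.99), 1 (7.06) and 2 (5.77) than in any other nerve library, which had 3.95 to 5.36. The same 4 libraries had the highest levels of Ucp1, the uncoupling protein that marks brown adipocytes: 7.95 in SD replicate 5 and 12.73, 9.70 and 6.18 in the KD libraries, in that order. Every other nerve library had Ucp1 between 3.03 and 4.97. Nerve Cidea differed by 1.19 for KD against HFD (adjusted p 0.521) and by -0.92 for HFD against SD (adjusted p 0.256), and each comparison holds at least 1 of these libraries. The mean of the 6 brown fat markers listed for nerve, not all of which passed the filter on low values, was also taken. It ranged from 6.94 to 8.04 in SD, 7.01 to 8.71 in KD and 6.97 to 7.40 in the other regimens. The part of brown fat in the result was not tested. In muscle Ucp1 did not exceed 1.80.

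**Figure D3:**
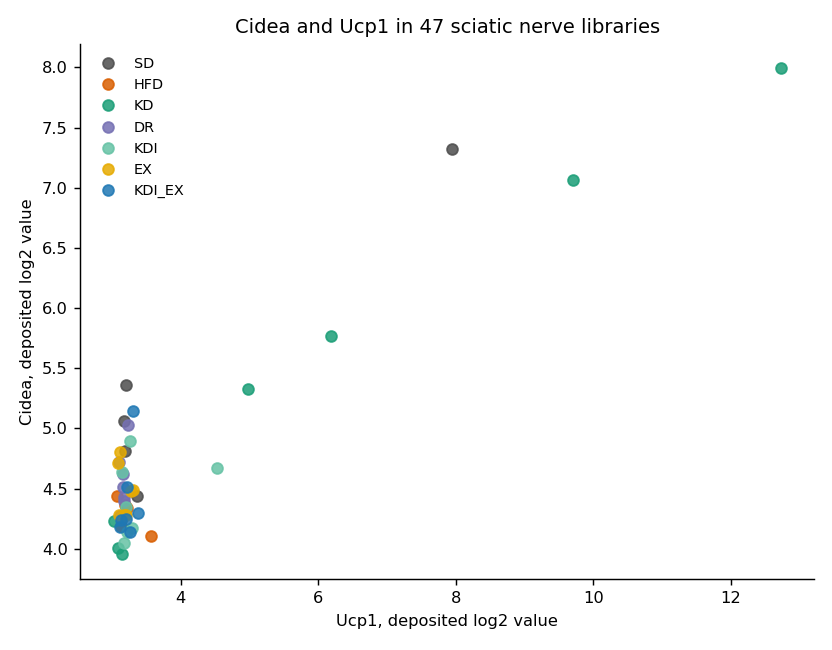
Deposited log2 level of Cidea (y axis) against that of Ucp1 (x axis), 1 point per nerve library, coloured by regimen. SD replicate 5 (Ucp1 7.95, Cidea 7.32) and KD replicates 6 and 1 (Ucp1 12.73 and 9.70, Cidea 7.99 and 7.06) lie far from the rest.

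Of the identity regulators, Pparg and Cebpa are the transcription factors of the adipocyte programme, and Fabp4 is one of its products. Muscle Pparg had log2 levels of 7.14, 7.69 and 8.58 in SD, 7.29, 8.15 and 8.51 in HFD and 7.13, 7.49 and 7.96 in KD. The levels were 7.45, 7.70 and 8.26 in DR, 7.39, 7.83 and 8.43 in KDI, 7.71, 7.81 and 8.43 in EX and 7.02, 7.56 and 8.19 in KDI_EX. All regimens overlapped and no difference passed; KD stood at -0.42 against HFD (SE 0.19, adjusted p 0.730). Muscle Fabp4 had 13.61, 13.89 and 14.83 in SD, 13.87, 14.66 and 14.74 in HFD and 13.77, 14.06 and 14.49 in KD. It had 13.45, 14.17 and 14.31 in DR, 13.82, 14.39 and 14.97 in KDI, 14.12, 14.25 and 15.28 in EX and 13.43, 14.22 and 15.03 in KDI_EX. HFD had the highest median and SD the lowest, with a difference of 0.45 (SE 0.20, adjusted p 0.509).

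In nerve Pparg stood at 8.84, 9.47 and 9.86 in SD, 8.97, 9.47 and 10.19 in HFD and 8.63, 9.30 and 9.97 in KD. It stood at 9.20, 9.71 and 10.30 in DR, 9.01, 9.33 and 10.21 in KDI, 9.26, 9.89 and 10.21 in EX and 8.56, 9.70 and 10.54 in KDI_EX. These medians differed by less than the range within any regimen. Fabp4 in nerve was 14.49, 15.32 and 15.56 in SD, 13.89, 15.16 and 15.87 in HFD and 14.40, 14.86 and 15.79 in KD. It was 14.82, 15.03 and 16.50 in DR, 14.73, 15.28 and 16.32 in KDI, 15.17, 15.39 and 16.26 in EX and 14.32, 15.21 and 16.38 in KDI_EX. EX had the highest median, 0.49 above HFD by the means (SE 0.32, adjusted p 0.730). Cebpa ranged from 10.75 to 13.06 in nerve and 8.35 to 10.30 in muscle, with no comparison past the test.

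Of the triglyceride synthesis genes, Dgat2 gave the one call in a comparison. It encodes the acyltransferase that adds the last fatty acid to make triglyceride, and lies at chr7:99153658-99182719 on the minus strand of GRCm38. Its muscle log2 levels were 10.38, 10.97 and 11.61 in SD, 10.98, 11.82 and 12.29 in HFD and 10.32, 10.52 and 11.10 in KD. They were 10.11, 11.18 and 11.42 in DR, 10.81, 11.11 and 11.73 in KDI, 11.04, 11.73 and 12.73 in EX and 10.25, 10.83 and 11.45 in KDI_EX. HFD and EX, the regimens that ended on the high-fat diet, held the highest libraries, and KD the lowest median; KD and HFD overlapped by the margin between 10.98 and 11.10.

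Muscle Dgat2 fell by 1.09 on the log2 scale in KD against HFD (SE 0.22, 95% interval -1.52 to -0.66, n = 7 and 7, lower in 7 of 7, limma adjusted p 0.00738). The group means were 10.60 ± 0.25 in KD and 11.69 ± 0.45 in HFD (standard deviation, n = 7 each). Without each library in turn the difference was -1.21 to -0.99 with adjusted p between 0.00152 and 0.0326. With the adipocyte score as a covariate it was -0.73 and no longer passed (adjusted p 0.126), and with Adipoq -0.69 (adjusted p 0.164). Adipoq itself differed by -1.24 in that comparison (SE 0.39, adjusted p 0.245). Among the other comparisons DR stood at -0.71 against HFD (adjusted p 0.557), KDI_EX at -0.85 against HFD (adjusted p 0.157) and -0.88 against EX (adjusted p 0.214), and HFD at 0.71 against SD (adjusted p 0.243). EX did not differ from HFD beyond its error (0.03, SE 0.22, 95% interval -0.40 to 0.46). The F test over regimens gave an adjusted p of 0.00417.

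**Figure D4:**
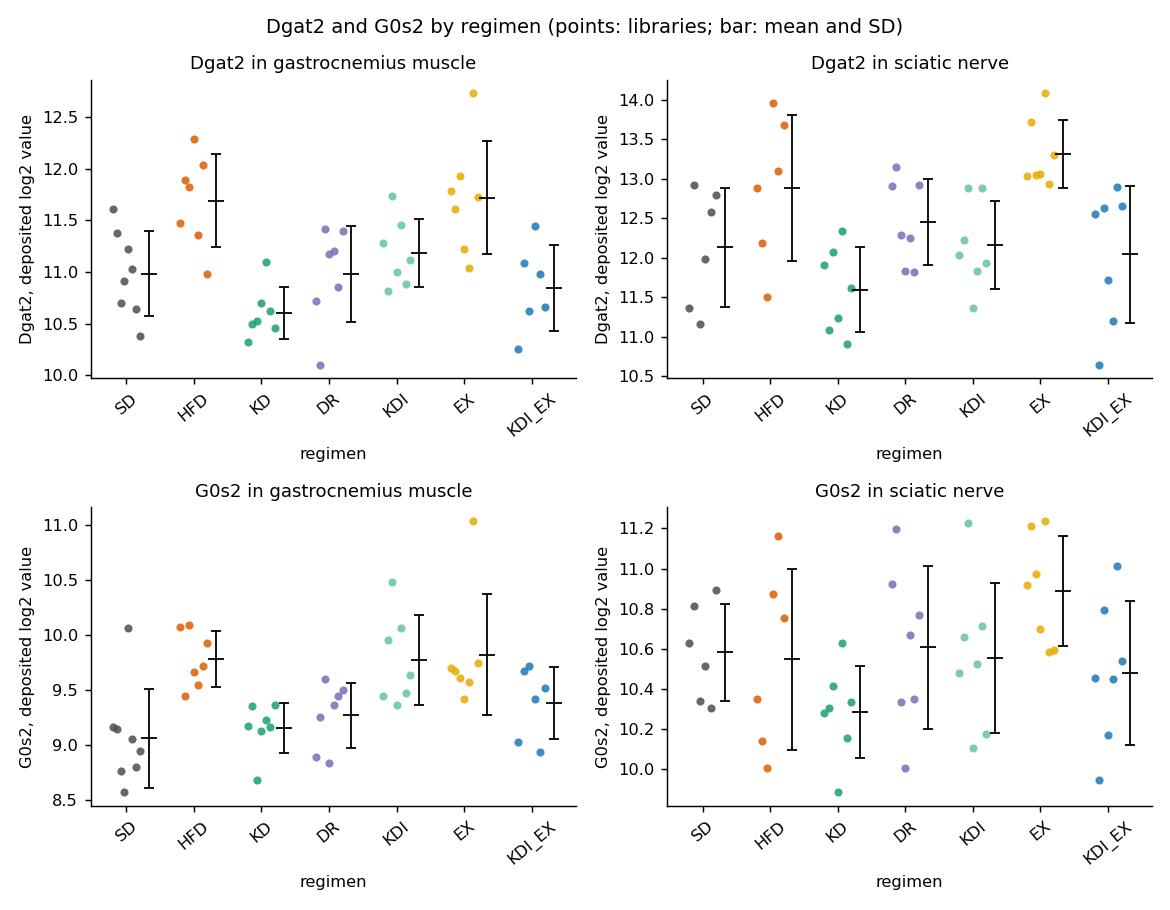
Deposited log2 level of Dgat2 and G0s2 in every muscle and nerve library by regimen, with the group mean and standard deviation. Muscle Dgat2 has its lowest mean in KD (10.60) and its highest in HFD and EX (11.69 and 11.72), and muscle G0s2 separates HFD (9.45 to 10.09) from KD (8.69 to 9.37).

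Nerve Dgat2 also had its highest medians in HFD and EX. Its log2 levels were 11.15, 12.28 and 12.93 in SD, 11.50, 12.99 and 13.96 in HFD and 10.91, 11.61 and 12.33 in KD. They were 11.82, 12.29 and 13.15 in DR, 11.36, 12.03 and 12.88 in KDI, 12.94, 13.06 and 14.08 in EX and 10.64, 12.55 and 12.89 in KDI_EX. EX stood first and HFD second, and every EX library lay above every KDI_EX library. The difference was -1.27 for KDI_EX against EX (SE 0.35, lower in 7 of 7, adjusted p 0.271), -1.29 for KD against HFD (SE 0.37, adjusted p 0.251) and 0.75 for HFD against SD (SE 0.38, adjusted p 0.283). Without HFD replicate 3, the HFD library lowest in Adipoq, KD against HFD was -1.57 and passed (adjusted p 0.0314). Nerve Dgat2 was also the member with the largest negative difference against HFD in DR (-0.43, adjusted p 0.810), KDI (-0.72, adjusted p 0.999885) and KDI_EX (-0.84, adjusted p 0.799).

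Pck1, which supplies glycerol phosphate from pyruvate in fat (glyceroneogenesis), showed the opposite lean in nerve. It lies at chr2:173153048-173159273 on the plus strand. Its nerve log2 levels were 11.65, 12.31 and 13.08 in SD, 11.05, 11.40 and 12.04 in HFD and 11.43, 12.22 and 12.96 in KD. They were 12.34, 12.54 and 12.96 in DR, 11.98, 12.22 and 13.36 in KDI, 11.62, 12.14 and 12.75 in EX and 11.16, 12.70 and 13.88 in KDI_EX. HFD had the lowest median of the 7, and every DR library lay above every HFD library. The difference from HFD was 1.05 for DR (SE 0.31, higher in 7 of 7, adjusted p 0.459), 1.01 for KDI_EX (SE 0.31, adjusted p 0.427), 0.92 for KDI (adjusted p 0.923) and 0.69 for EX (SE 0.31, adjusted p 0.681), and HFD stood at -0.89 against SD (SE 0.32, adjusted p 0.184). These were the largest positive nerve differences of any member in the comparisons of DR, KDI, EX and KDI_EX with HFD, and Pck1 was also the largest for KDI_EX against EX (0.33, adjusted p 0.990). None passed.

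In muscle Pck1 had 8.68, 9.50 and 10.88 in SD, 8.01, 9.25 and 10.12 in HFD and 8.26, 8.67 and 9.74 in KD. It had 8.70, 9.38 and 10.38 in DR, 8.54, 9.83 and 10.76 in KDI, 8.86, 9.65 and 10.73 in EX and 7.76, 8.29 and 10.89 in KDI_EX. KDI_EX and KD had the lowest medians and all regimens overlapped. Pck1 had the largest negative difference of KD against SD (-0.80, adjusted p 0.469) and the largest positive differences of KDI (0.47, adjusted p 0.999881) and EX (0.44, adjusted p 0.996) against HFD. For KDI the largest negative one was that of Dgat2 (-0.51, adjusted p 0.999881).

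The levels of Dgat2 and Pck1 were then set against Adipoq in the same library, since both correlated with it. In nerve the log2 level of Dgat2 minus that of Adipoq was -1.62, -1.16 and -0.94 in SD, -0.87, -0.76 and -0.36 in HFD and -2.002, -1.63 and -1.17 in KD. It was -1.52, -1.30 and -0.86 in DR, -1.70, -1.33 and -1.15 in KDI, -0.86, -0.72 and -0.53 in EX and -1.77, -1.43 and -1.03 in KDI_EX. HFD and EX lay highest, and their libraries did not overlap those of SD, KD, KDI or KDI_EX (the highest DR library lay within the HFD range). The order of the medians of the other 5 regimens was SD, DR, KDI, KDI_EX and KD, with overlapping ranges.

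Nerve Pck1 minus Adipoq ran the other way. It was -1.95, -0.76 and -0.53 in SD, -2.38, -2.23 and -1.20 in HFD and -1.35, -1.02 and -0.60 in KD. It was -2.04, -1.04 and -0.91 in DR, -1.46, -1.13 and -0.85 in KDI, -2.35, -1.97 and -1.21 in EX and -1.24, -1.06 and -0.56 in KDI_EX. HFD and EX had the lowest medians, and the ranges of all 7 regimens overlapped. In muscle it was -1.61, -0.73 and -0.43 in SD, -2.24, -1.92 and -1.43 in HFD and -1.55, -0.98 and -0.71 in KD. It was -1.11, -0.94 and -0.47 in DR, -1.57, -1.12 and -0.95 in KDI, -1.75, -1.44 and -1.13 in EX and -1.48, -1.01 and -0.46 in KDI_EX. HFD was again lowest by its median and EX next, and every DR library lay above every HFD library. Muscle Dgat2 minus Adipoq had another order. Its means were 0.28 in KDI, 0.57 in EX, 0.58 in HFD, 0.58 in SD, 0.63 in DR, 0.73 in KD and 1.11 in KDI_EX, with standard deviations of 0.38 to 0.94.

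**Figure D5:**
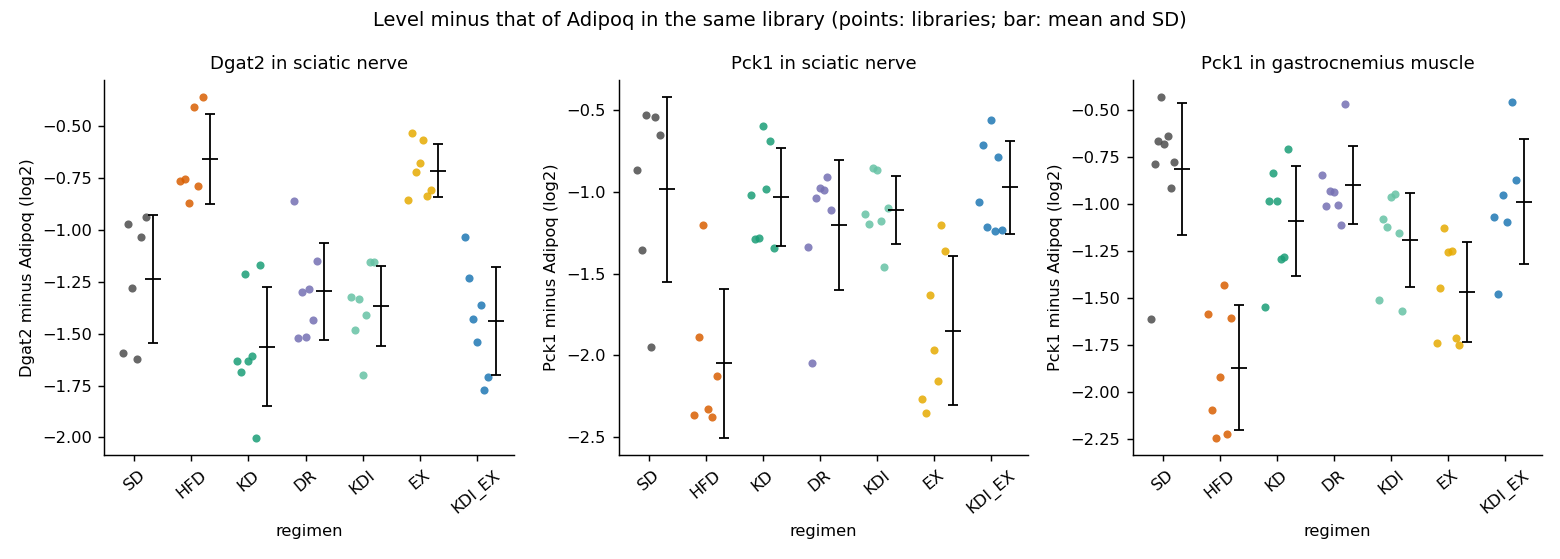
Log2 level of Dgat2 and of Pck1 minus that of Adipoq in the same library, by regimen and tissue, 1 point per library with the group mean and standard deviation. In nerve the HFD and EX means lie highest for Dgat2 (-0.66 and -0.71) and lowest for Pck1 (-2.05 and -1.85).

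A related limma fit used a score of the 8 outside adipocyte markers as a covariate, to which the nerve fit adds the muscle fibre score. It estimates how far each gene follows the score, while the subtraction fixes this in advance. The fit is therefore no test of the differences from Adipoq above. For muscle Dgat2 the 2 had opposite signs. Its mean minus Adipoq was higher in KD (0.73) than in HFD (0.58), while the score fit gave -0.73 for KD against HFD. The covariate was itself measured after the regimens, so its calls are conditional on that score. Without a covariate, 2 of its markers were called: Lep in muscle, as given above, and Cfd in nerve. Cfd was higher in nerve in KDI_EX than in HFD (1.40, SE 0.30, limma adjusted p 0.0424). In nerve Dgat2 passed in 6 comparisons. It was higher in HFD than in SD (0.62, SE 0.11, adjusted p 0.00447), where 0.61% of genes and 4 members were called. Against HFD it was lower in KD (-0.93, SE 0.11, adjusted p 7.99e-07; 4 members and 0.522% of genes called), in DR (-0.72, SE 0.11, adjusted p 0.000157; 2 members, 0.557%) and in KDI (-0.82, SE 0.10, adjusted p 1.2e-05; 2 members, 0.372%). It was also lower in KDI_EX against HFD (-0.96, SE 0.10, adjusted p 2.11e-07; 5 members, 0.702%) and against EX (-0.80, SE 0.10, adjusted p 1.3e-05; 2 members, 0.197%). With Adipoq alone as the covariate these 6 also passed, at 0.58, -0.90, -0.64, -0.71, -0.78 and -0.71, with adjusted p from 0.000118 to 0.0368. The F test with the score called 8 members and 1.25% of genes, and Dgat2 ranked 2 among all genes (adjusted p 1.53e-08).

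Nerve Pck1 passed in 5 of the same comparisons with the opposite sign. It was lower in HFD than in SD (-0.95, SE 0.18, adjusted p 0.00657) and higher than in HFD in KD (0.87, SE 0.17, adjusted p 0.00499), DR (0.87, SE 0.17, adjusted p 0.00741), KDI (0.85, SE 0.17, adjusted p 0.00815) and KDI_EX (0.94, SE 0.17, adjusted p 0.00162). The F test gave an adjusted p of 0.00101. The other nerve members called with the score were Adig (-0.67 in HFD against SD, 0.78 in KD and 0.68 in KDI_EX against HFD), Thrsp (-0.90 in HFD against SD), Cidec (-0.40 in KD and -0.47 in KDI_EX against HFD) and Pnpla2 (0.39 in KDI_EX against HFD, 0.44 against EX). Their adjusted p were between 0.00263 and 0.0289. By the F test Slc7a10 (adjusted p 0.0120) and Plin4 (0.0359) joined these 6.

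In muscle the score fit called Pck1 in 4 comparisons and no longer called Dgat2. Pck1 was lower in HFD than in SD (-0.99, SE 0.13, adjusted p 3.41e-05; 0.0191% of genes called). Against HFD it was higher in DR (0.91, SE 0.14, adjusted p 0.000326; 0.0191%), KDI (0.64, SE 0.13, adjusted p 0.0229; 0.108%) and KDI_EX (0.70, SE 0.15, adjusted p 0.0417; 0.0953%). For KD against HFD it was 0.61 (SE 0.14, adjusted p 0.0519), and limma called 0 members, with 8 at an unadjusted p under 0.05, beside 0.191% of genes. Without a covariate Pck1 was lower than HFD in KDI_EX (-0.4997, adjusted p 0.951) and in KD (-0.46, adjusted p 0.996), so the covariate turned both signs. With Adipoq as the covariate Pck1 passed in HFD against SD (-0.996, adjusted p 0.000305) and DR against HFD (0.90, adjusted p 0.00498) but not in KDI (0.66, adjusted p 0.0580) or KDI_EX against HFD (0.76, adjusted p 0.0844). In KDI_EX against HFD the receptor gene Acvr1c was called as well (0.58, SE 0.13, adjusted p 0.0405). The F test called Pck1 alone among the members (adjusted p 0.000153; 0.749% of genes).

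The remaining synthesis genes gave no call in the fit without a covariate. Gpam and Agpat2 encode the first acyltransferases of the pathway, Lpin1 the phosphatidate phosphatase, Dgat1 the second triglyceride-making enzyme, Gpd1 the glycerol phosphate dehydrogenase and Thrsp a regulator of lipogenesis. Thrsp had the largest negative nerve difference of KD against SD (-0.88, adjusted p 0.822) and KDI against DR (-0.64, adjusted p 0.865), over levels from 9.46 to 12.12. Lpin1 had the largest positive muscle difference of DR against HFD (0.24, adjusted p 0.951) and the largest negative one of KDI against DR (-0.23, adjusted p 0.668), and Gpam the largest positive one of KDI_EX against HFD (0.19, adjusted p 0.912). In muscle Gpam ranged from 12.45 to 13.58, Lpin1 from 13.01 to 13.95, Gpd1 from 13.16 to 14.33, Agpat2 from 7.63 to 9.78 and Dgat1 from 8.22 to 9.23.

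Of the genes of lipolysis and its control, G0s2 passed the F test in muscle (adjusted p 0.0307). It encodes an inhibitor of the lipase Pnpla2 and lies at chr1:193272161-193273217 on the minus strand. Its muscle log2 levels were 8.57, 9.0003 and 10.06 in SD, 9.45, 9.72 and 10.09 in HFD and 8.69, 9.17 and 9.37 in KD. They were 8.84, 9.36 and 9.60 in DR, 9.37, 9.64 and 10.48 in KDI, 9.42, 9.67 and 11.04 in EX and 8.94, 9.47 and 9.72 in KDI_EX. SD and KD had the lowest medians and HFD, EX and KDI the highest; every KD library lay below every HFD library. The pairwise differences did not pass. HFD against SD gave 0.72 (SE 0.19, above the SD mean in 7 of 7, adjusted p 0.180). KD against HFD gave -0.62 (SE 0.19, below the HFD mean in 7 of 7, adjusted p 0.233). Without SD replicate 5 the first was 0.86 and passed (adjusted p 0.0476). The F call was lost without HFD replicate 3 and without SD replicates 3, 4, 7 or 8. With the adipocyte score as a covariate the F test gave an adjusted p of 0.279, and with Adipoq 0.261. G0s2 correlated with Adipoq in muscle with r of 0.46 (rho 0.45, adjusted p 0.00139), and 0.24 with regimen means subtracted (adjusted p 0.117).

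Pnpla2, the adipose triglyceride lipase that G0s2 inhibits, had narrow groups in muscle. Its log2 levels were 12.67, 12.94 and 13.07 in SD, 12.79, 12.91 and 12.97 in HFD and 12.67, 12.89 and 13.25 in KD. They were 12.50, 12.82 and 13.002 in DR, 12.73, 13.06 and 13.28 in KDI, 12.73, 12.86 and 13.43 in EX and 12.65, 12.88 and 13.41 in KDI_EX. The medians lay between 12.82 and 13.06 and all ranges overlapped. KD against HFD gave 0.03 (SE 0.11, 95% interval -0.18 to 0.25, adjusted p 0.996). In nerve Pnpla2 had 12.45, 12.91 and 13.30 in SD, 12.34, 12.90 and 13.38 in HFD and 12.66, 12.86 and 13.65 in KD. It had 12.81, 13.01 and 13.72 in DR, 12.86, 13.04 and 13.74 in KDI, 12.82, 13.09 and 13.71 in EX and 12.23, 13.30 and 14.53 in KDI_EX. KDI_EX had the highest median and the widest range, at 0.45 above HFD by the means (SE 0.24, adjusted p 0.891).

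The rest of this group comprised Lipe and Mgll (the lipases of the next steps), Abhd5 (the co-activator of Pnpla2), Adrb3 (the beta-3 adrenergic receptor), Acvr1c (ALK7, a receptor that restrains lipolysis), Aqp7 (a glycerol channel) and Pnpla3 (a paralogue of Pnpla2). Adrb3 had the largest negative muscle difference of HFD against SD (-0.50, adjusted p 0.591) and of DR against SD (-0.28, adjusted p 0.999963), and the largest positive one of KD against HFD (0.16, adjusted p 0.996), at levels of 3.83 to 5.93. Aqp7 was the largest positive member for KDI_EX against KDI (0.12, adjusted p 0.983). Lipe ranged from 11.36 to 13.89 in nerve and 10.10 to 11.71 in muscle, Mgll from 12.10 to 13.48 and 10.85 to 12.50, Abhd5 from 10.74 to 11.54 and 10.20 to 10.69. Abhd5 was thus among the narrowest members in both tissues. Acvr1c ranged from 9.08 to 11.62 in nerve and 5.85 to 8.43 in muscle, and Pnpla3 from 6.54 to 9.17 and 4.87 to 7.25.

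The thermogenic gene Dio2, which activates thyroid hormone in brown fat and muscle, ranged from 4.24 to 6.08 in nerve and 6.39 to 8.69 in muscle. It had the largest positive nerve difference of KD against SD (0.33, adjusted p 0.822) and an F test adjusted p of 0.139 in nerve. Among the other adipocyte-enriched genes, Car3 ranged from 14.36 to 16.79 and 15.60 to 16.69, and had the largest negative muscle difference of EX against HFD (-0.15, adjusted p 0.996) and the largest positive one of KDI_EX against EX (0.19, adjusted p 0.801). Sncg ranged from 13.82 to 14.99 and 8.02 to 10.78, with the largest negative nerve difference of EX against HFD (-0.06, adjusted p 0.893). Cyp2e1, a cytochrome P450 abundant in liver and fat, ranged from 11.56 to 14.35 and 7.74 to 10.73, with the largest positive nerve difference of KDI_EX against KDI (0.51, adjusted p 0.998). Slc7a10, an amino acid transporter of adipocytes, ranged from 8.49 to 10.95 and 5.70 to 8.35. The largest positive muscle difference of DR against SD belonged to G0s2 (0.21, adjusted p 0.999963).

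Whether an effect differed between nerve and muscle was tested as the difference of the 2 estimates over 15055 genes tested in both. This test called 0 members in all 11 comparisons. HFD against SD, KD against HFD, KDI against DR, KDI_EX against HFD and KDI_EX against EX had 0.00664% of genes called each, KD against SD had 0.0133% and the other 5 had 0%. The counts of members with an unadjusted p under 0.05 were 4 for HFD against SD (12.9%, against 16.1% of all genes), 4 for KD against HFD (12.9% against 2.86%), 6 for DR against HFD (19.4% against 5.04%) and 10 for KDI_EX against HFD (32.3% against 4.1%). They were 5 for KDI_EX against KDI (16.1% against 6.54%), 4 for KDI_EX against EX (12.9% against 4.86%), 3 for KDI against DR (9.68% against 9.15%), 2 for EX against HFD (6.45% against 3.81%) and 1 for KDI against HFD (3.23% against 2.19%). KD and DR against SD had 0, against 10.9% and 4.66% of all genes. That for HFD against SD was led by Cidea (-0.92 in nerve, 0.90 in muscle, a difference of -1.82, SE 0.51, adjusted p 0.242). That for KDI_EX against HFD was led by Adig (0.74 in nerve, -0.48 in muscle, a difference of 1.22, SE 0.31, adjusted p 0.309). The 2 tissues may come from the same mice, which the test does not take into account.

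Further lists of the pathway were counted for context. Of 35 other genes of droplets, fatty acid uptake and triglyceride handling, 34 were tested in nerve and 32 in muscle, and 1 was called in a comparison: Slc27a1, a fatty acid transporter, was higher in muscle in KD than in SD (0.50, adjusted p 0.0261) and in KDI than in DR (0.59, adjusted p 0.0121). Of 9 fatty acid synthesis genes, Fasn, the synthase itself, was lower in muscle in KD than in SD (-1.37, adjusted p 0.0189). Of 15 other adipogenic regulators 0 were called in either tissue, with 0 to 2 at an unadjusted p under 0.05 in KD, EX, and KDI_EX against HFD. In muscle KD against HFD the droplet list had 23 of 32 negative with a median of -0.07, the synthesis list 4 of 9 negative with a median of 0.02 and the regulators 8 of 15 with a median of -0.00. The members had 26 of 31 and a median of -0.34 there.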

How the data were processed

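Messenger RNA was measured in 47 nerve and 49 muscle libraries, read as paired ends on a NovaSeq X Plus instrument after TRIzol extraction and NEBNext Ultra library preparation, per the labels' protocols. Per the submitters' processing notes, which give no roles, the build was GRCm38 and the tools included STAR 2.7.8a, RSEM 1.3.3, cutadapt 2.3 and DESeq2 (version not given). The authors deposited log2 values, 1 per gene symbol and library; how they were transformed, and whether counting used the strand, is not given in the sources used here. A transform that shrinks low values would understate the differences of low genes. Without counts the depth per library is unknown and no counting interval can be given.

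From these values, genes at or above log2 of 10 in at least 6 libraries of a tissue were kept. One limma 3.58.1 model per tissue (R 4.3.3, trended and robust prior, statmod 1.5.0) held the 7 regimens, with no covariate. It gave 11 comparisons and a moderated F test, two-sided, adjusted by Benjamini-Hochberg over all genes tested and called at 0.05. The script recovered most changes added to simulated data, in which the noise was independent between genes. Outlying libraries and RNA carried over from fat or muscle were not simulated, so the check does not cover them. Correlations used 100000 permutations (Python 3.11.15, numpy 2.4.6, scipy 1.17.1, pandas 2.3.3; figures with matplotlib 3.10.9). Positions came from the GRCm38 annotation, which held all 32 members, and promoters from the RefSeq table.

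The 32 members and the lists of other genes were chosen with earlier results of these data known. Values are given by regimen for Plin1, Cidec, Fabp4, Pparg, Pck1, Pnpla2 and Dgat2 and for members past a test, and each comparison's largest positive and negative member is named; up to 4 called genes of each other list are named. Muscle Cidea, nerve Cidea with Ucp1, and the levels set against Adipoq were added after their values were seen, as was the fit with Adipoq as a covariate. Alternatives were library weights, no filter, quantile normalization, another prior, only the 2 groups compared, adipocyte and muscle scores as covariates, and leaving out libraries. No 2 libraries were copies (highest correlation 0.999257 in nerve and 0.998957 in muscle).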

Additional observations from a re-analysis of the deposited data

Results flagged for a closer look

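Single libraries lay far from the rest of their regimen in 9 of 105 groups of 6 to 8 libraries examined, by the gap to the nearest library as a share of the group's range; chance flags about 1 group in 20. G0s2 in muscle had 3 of them: 10.06 in SD replicate 5 (next 9.161), 8.687 in KD replicate 3 (next 9.132) and 11.03 in EX replicate 6 (next 9.745). EX replicate 6 was also high in Fabp4 (15.28, next 14.29), as was SD replicate 1 (14.83, next 14.18). Muscle KD replicate 4 was high in both Plin1 (10.26, next 9.251) and Pck1 (9.738, next 8.816). In nerve, DR replicate 2 was high in Fabp4 (16.5, next 15.4) and KDI replicate 3 in Pck1 (13.36, next 12.58).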

How the results depend on the processing

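The values have no known depth, so the precision rests on 6 to 8 libraries per regimen; the authors' transform is unknown, and a covariate measured after the regimen can remove part of a regimen's own effect. No paired analysis was possible because replicate numbers here follow accession order and name no mouse or litter. No filter, quantile normalization, another prior and leaving out the 2 libraries per tissue that stood apart moved no count of members called by over 1.5 times.

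With library weights limma called 3 members in nerve for HFD against SD (22% of all genes called), 1 for DR against HFD (0.255%) and 4 by the F test (10.5%). The members' share for nerve HFD against SD was below that of all genes. In muscle this setting called 4 for HFD against SD (1.63%), 3 for KD against HFD (0.781%) and 12 by the F test (8.36%). Among all genes it called 3787 for nerve HFD against SD, against at most 12 in a nerve comparison without weights. With the adipocyte score as covariate the nerve counts were 4 for HFD against SD, 4 for KD, 2 for DR, 2 for KDI and 5 for KDI_EX against HFD, 2 for KDI_EX against EX and 8 by the F test. In muscle they were 1 for HFD against SD, 0 for KD, 1 for DR, 1 for KDI and 2 for KDI_EX against HFD, and 1 by the F test. With Adipoq as covariate, chosen after seeing the data, the nerve counts were 3, 5, 3, 3 and 6 in the same order (0.401%, 0.43%, 0.389%, 0.25% and 0.615% of all genes). They were 1 for KDI against DR (0.0522%), 2 for KDI_EX against EX (0.435%) and 6 by the F test (1.13%). In muscle they were 1 for HFD against SD (0.0191%), 0 for KD (0.191%), 1 for DR (0.0318%) and 1 for KDI_EX against HFD (0.0762%), and 1 by the F test (0.724%). With only the 2 groups compared, 1 nerve member passed for DR against HFD and 2 muscle members for KD against HFD. In that setting 0 to 5 genes of all kinds were called in a nerve comparison and 0 to 105 in a muscle one. The cause of these changes was not tested.

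Leaving out 1 library at a time, the count of members called ranged from 0 to 1 for nerve KD against HFD (Dgat2, without HFD replicate 3) and for the nerve F test (without SD replicate 5 or HFD replicate 3). In muscle it ranged from 0 to 1 for HFD against SD (without SD replicate 5), for KDI_EX against HFD (without KDI_EX replicate 5 or HFD replicate 5) and for KDI_EX against EX (without KDI_EX replicate 5). It ranged from 1 to 2 for KD against HFD (Cidec joined without HFD replicate 5) and from 1 to 5 for the F test, with 5 without KDI_EX replicate 5 and 4 without EX replicate 5, HFD replicate 5 or HFD replicate 7. Every other count stayed at 0.

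Covariates turned signs. In nerve 0 members turned from a difference of at least 0.5 in size. In muscle, with the score, 3 did for KD, 1 for DR and 4 for KDI_EX against HFD, 4 for KDI_EX against EX, 4 for KDI_EX against KDI, 1 for HFD against SD and 1 for KDI against DR. Muscle Pck1, at -0.94 and -0.97 without a covariate for KDI_EX against EX and against KDI, became 0.31 with the score and 0.35 with Adipoq in the first, and 0.0611 and 0.100 in the second. Muscle Plin1 turned to 0.16 and 0.17 with Adipoq for KD and KDI_EX against HFD. Plin4 in nerve DR against SD went from 0.34 to -0.00595 with Adipoq. Nerve Cidec for KDI_EX against KDI ranged from -0.3255 to 0.0973 without 1 library, and was 0.00672 without KDI_EX replicate 5. Without the 2 libraries farthest from the median, r with Adipoq in nerve was -0.0130 for Cidea and -0.0358 for Sncg, and r with Ckm was -0.0349 for Gpam and -0.0254 for Dio2. With regimen means subtracted, r with Adipoq in muscle was -0.0237 for Cidea and 0.0211 for Car3, G0s2 no longer passed (0.24), and 26 members correlated with Ckm in nerve, against 0 over all libraries.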
